A study of Mus musculus with 9 samples.

Results

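Tpt1 and 9 translation factors or ribosome-associated proteins whose mRNAs belong to the TOP class were examined: Eef1a1, Eef1b2, Eef1d, Eef1g, Eef2, Pabpc1, Eif4b, Naca and Rack1. These 10 genes were a given list, built around Tpt1, among 55536 gene identifiers in the count table. All 10 passed the filter on low counts, which left 14684 genes for testing. Tpt1 was chosen by its measured values: its level differed between the exosome groups in these libraries, and the other 9 were added as mRNAs of the same class. Its values in that contrast are therefore given as a description, without a test, and the question put to the data was whether the other TOP mRNAs shared the difference.

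RNA was sequenced from splenic CD4+ T cells of wild-type males 6 to 12 weeks old. In all 9 cultures anti-CD3/anti-CD28 beads, which engage the T cell receptor and CD28, and 5 ng/mL of murine IL-2 stimulated the cells for 18 h. The group EKO_exo also received exosomes, small secreted vesicles, of BMDM, commonly short for macrophages grown from bone marrow, from mice deficient in the lipid carrier apolipoprotein E, at 2e+09 particles per mL. The group WT_exo received the same dose of exosomes of wild-type BMDM, and the group PBS received phosphate-buffered saline. The T cells themselves were wild type in every group, so the genotype in a group's name is that of the cells that released the exosomes. Each group had 3 cultures, called biological replicates by the submitters. Whether each culture had its own mouse is not stated, and the p-values reflect only how far these cultures differed, which may be technical.

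TOP mRNAs carry a terminal oligopyrimidine tract, a C at the cap followed by an unbroken run of C and U. They code for ribosomal proteins, for most elongation factors and for a few other parts of the translation machinery. The kinase complex mTORC1 controls their translation, in large part through LARP1, which binds the cap and the tract and holds the mRNA back when mTORC1 is inactive. In T cells the complex is switched on by the antigen receptor, by CD28 and by IL-2. This control acts mainly on how strongly the mRNAs are translated, which counts of mRNA do not measure.

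The tracts of members are shown because they define the class. In the GENCODE M21 annotation of GRCm38, 3 of the 7 members searched had a transcript that began with a C followed by at least 4 pyrimidines, read on the transcript's strand. Of all 141767 annotated transcripts, 2865 (2.02%) began with such a run. The first 30 bases of such transcripts of Tpt1 and Rack1 follow, 5′ to 3′, with the starting run in capitals.
Tpt1-206 (chr14:75845331-75845360, plus strand): CTTTTCCgcccgctcccccctccccccgcg
Rack1-201 (chr11:48800360-48800389, plus strand): CTTTTTCTCCacagggtcgtggtggcagcc

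The runs were 7 bases long in Tpt1-206 and 10 in Rack1-201. Tpt1-206 is annotated as a transcript with a retained intron, and the annotated gene starts upstream of it, at position 75845093. In the Eef2 and Naca transcripts below the capitals mark the first such run, which lies inside the annotated start, at position 16 of Eef2-201 and position 11 of Naca-202, counted from the first base.
Eef2-201 (chr10:81176631-81176660, plus strand): gttgacgtcagcggtCTCTTCCgccgcagc
Naca-202 (chr10:128035635-128035664, plus strand): ctcgctcgttCTCTTTCTgccgccatcttg

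A run somewhere in the first 30 bases was present in 32.5% of annotated transcripts, so its presence there does not single these out. An annotated start can lie upstream of the start that a cell uses, and the start used in these T cells was not measured. No annotated Eef1a1 transcript began with the run. None with a first exon of at least 30 bases had a run in that window, and transcripts with a shorter first exon were left out. Starts of Eef1d, Eef1g and Pabpc1 were not analysed here.

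The libraries held 25792975 to 32971791 counts. EKO_exo replicates 3, 1 and 2 each stood apart. Values are in CPM, counts scaled to the size of the library. Replicate 3 lay at 61.6 on the first principal component of log2 CPM (18.8% of variance), where the other 8 lay between -16.0 and -3.8. Replicate 1 lay at -54.0 on the second component (15.7%), against -7.1 to 14.2 in the others. Replicate 2 lay at -36.4 on the third component (13.4%), against -12.9 to 25.3 in the others. EKO_exo libraries also had fewer genes with a count, 19038 to 19518, against 19989 to 20568 in WT_exo and 20120 to 20373 in PBS. Some results on EKO_exo are therefore also given without replicates 1 and 3. Such values rest on replicate 2 as the only EKO_exo library. All 8 CD4 T cell markers examined were measured, and together they made up 3438 to 3501 CPM in EKO_exo, 3297 to 3400 in WT_exo and 3304 to 3368 in PBS. Summed B cell markers came to 609.9 to 619.6 CPM in EKO_exo, 516.7 to 579.9 in WT_exo and 526.1 to 569.6 in PBS, with 10 of 13 genes passing the filter. Summed macrophage and monocyte markers came to 96.0 to 103.0 CPM in EKO_exo, 94.4 to 100.9 in WT_exo and 80.1 to 89.9 in PBS. Of that list 6 of 17 genes passed the filter, and C1qa, Cd163 and Marco were at 0 in every library. In bulk RNA, fewer cells of a type and less RNA per cell cannot be told apart.

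The 10 mRNAs were among the abundant ones in these cells, and together they took 1.97 to 2.00% of all counts in EKO_exo, 2.00 to 2.04% in WT_exo and 1.94 to 1.97% in PBS. Per kilobase of annotated exon, Eef2, the GTPase that moves the ribosome along the mRNA, was the highest in PBS at 2090 CPM per kb. Eef1a1, the GTPase that brings aminoacyl-tRNA to the ribosome, followed at 1629 CPM per kb. Tpt1 codes for TCTP, the translationally controlled tumor protein, an abundant protein linked to growth and survival, and stood at 457.2 CPM per kb. Pabpc1, the cytoplasmic poly(A)-binding protein, stood at 416.6 CPM per kb and Rack1, a scaffold protein on the small ribosomal subunit, at 414.2. The PBS libraries spanned 415.3 to 418.1 CPM per kb for Pabpc1 and 407.4 to 423.2 for Rack1, so these neighbours did not differ beyond their spread. Eef1b2, which recharges eEF1A with GTP, stood at 336.2 CPM per kb. Eif4b, a cofactor of the helicase eIF4A, stood at 253.6. The remaining members were lower: Eef1g, a structural subunit of the exchange complex, at 52.8, Eef1d, its other exchange subunit, at 43.9, and Naca, a subunit of the complex that binds nascent chains, at 28.0 CPM per kb. All of these values divide by every annotated exon, including long exons that a T cell may not use, so the order depends on that length. Rack1 has 5119 annotated exon bases and Tpt1 2380, while in CPM Rack1 stood higher in PBS, at 2120 against 1088.

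Tpt1 (ENSMUSG00000060126, chromosome 14, 75845093 to 75848525, plus strand, GRCm38) was higher in WT_exo than in the other groups. It measured 1142, 1124 and 1111 CPM in EKO_exo replicates 1, 2 and 3. It measured 1239, 1219 and 1327 CPM in WT_exo replicates 1, 2 and 3. It measured 1070, 1114 and 1080 CPM in PBS replicates 1, 2 and 3. Every WT_exo library lay above every other library, and the EKO_exo and PBS libraries overlapped. The means were 1126 ± 15.3 CPM in EKO_exo, 1262 ± 57.5 in WT_exo and 1088 ± 23.1 in PBS (SD, n = 3 each).

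**Figure D1:**
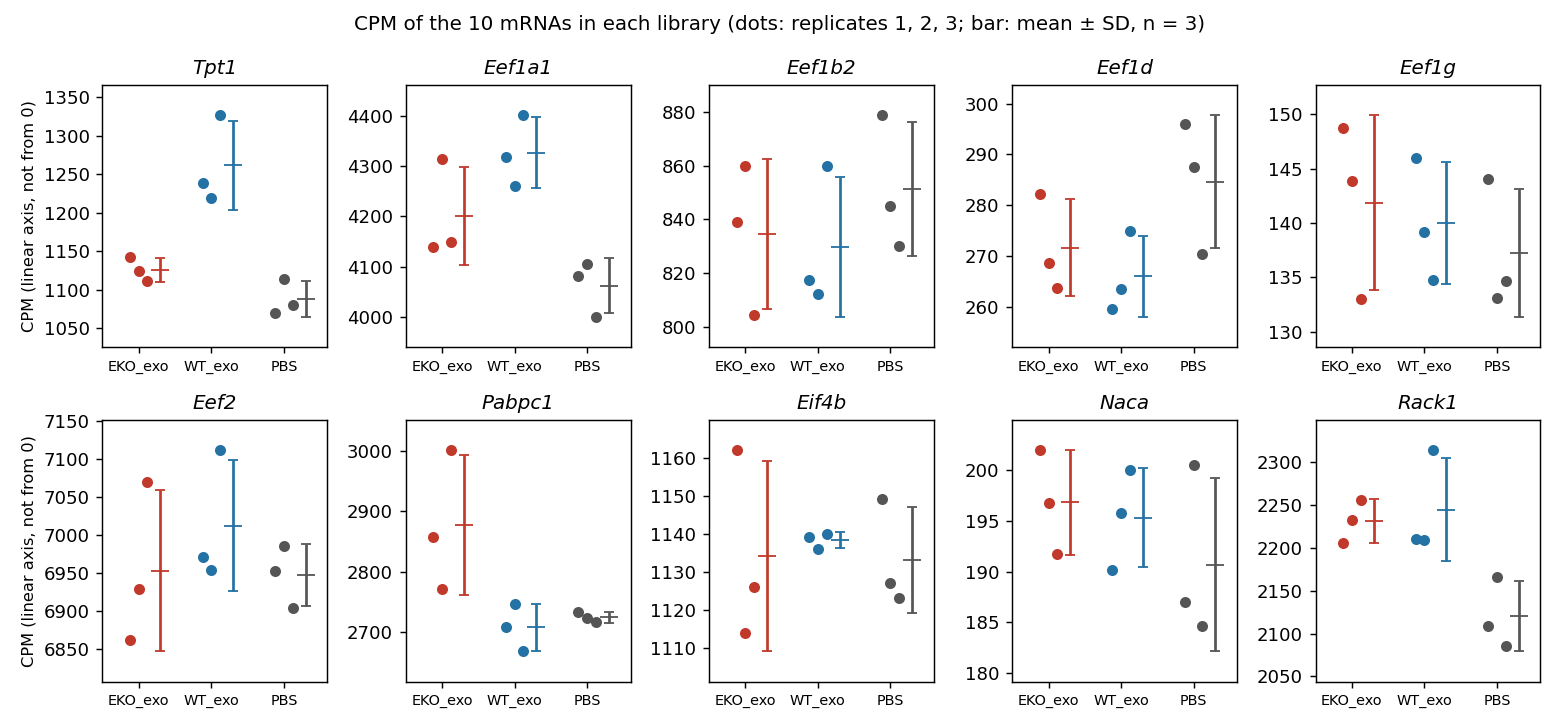
CPM of each of the 10 mRNAs (vertical axis, its own range in each panel) in EKO_exo, WT_exo and PBS. Points are libraries, and bars are the mean and SD of 3. Tpt1 in WT_exo lies at 1219 to 1327 CPM, above all 6 other libraries, while the groups overlap for most of the other mRNAs.

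Between the exosome groups the Tpt1 log2 fold change, EKO_exo over WT_exo, was -0.16, or 0.892-fold. Among all tested genes, whatever their level, Tpt1's change was not large: 66.3% had a smaller absolute log2 fold change. That share was not computed among genes as abundant as Tpt1. WT_exo replicate 3 was the highest library, and without it the log2 fold change was -0.13. Without EKO_exo replicates 1 and 3 it was -0.17. Summed markers of B cells and of CD4 T cells were also higher in every EKO_exo library than in every WT_exo library, and their part in the Tpt1 difference was not tested.

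None of the other 9 members passed the test between EKO_exo and WT_exo with edgeR, where 5 of 14684 genes (0.0341%) did, 0.0272% higher and 0.00681% lower. The number over all genes was 28 with no filter, 0 to 6 with a library left out and 0 without EKO_exo replicates 1 and 3. DESeq2 called 0 of the 9 members, where 0.473% of the genes it tested passed. At an unadjusted p under 0.05 there were 2 members of 9, Eef1a1 and Pabpc1, where 7.08% of all genes passed that mark. They lay on opposite sides.

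Pabpc1 (ENSMUSG00000022283, chromosome 15, 36595661 to 36609668, minus strand) measured 2857, 2772 and 3001 CPM in EKO_exo replicates 1, 2 and 3, against 2708, 2747 and 2668 CPM in WT_exo replicates 1, 2 and 3. The groups did not overlap, and EKO_exo was on top, opposite to Tpt1. The log2 fold change was 0.09 (SE 0.024, 95% interval 0.04 to 0.14, edgeR adjusted p = 0.380). It was 0.03 without EKO_exo replicates 1 and 3, so the size rested on those libraries. Pabpc1 was the 1 member of the 9 whose exosome groups did not overlap. Of all genes 11.8% did not overlap, 5.88% with EKO_exo higher and 5.97% with EKO_exo lower.

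Eef1a1 (ENSMUSG00000037742, chromosome 9, 78478449 to 78489151, minus strand) measured 4140, 4314 and 4149 CPM in EKO_exo replicates 1, 2 and 3, against 4319, 4261 and 4402 CPM in WT_exo replicates 1, 2 and 3. The groups overlapped through EKO_exo replicate 2. The log2 fold change was -0.04 (SE 0.021, 95% interval -0.08 to 0.00, edgeR adjusted p = 0.700). Without EKO_exo replicates 1 and 3 it was -0.004.

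For the remaining 7 members the intervals of the difference bound what a shared change could have been. Rack1 was at -0.01 on the log2 scale (95% interval -0.06 to 0.04), Eef2 at -0.01 (-0.05 to 0.02) and Eif4b at -0.01 (-0.06 to 0.05). None of these 3 intervals reached the Tpt1 value of -0.16. The other members of the eEF1B complex lay at 0.01 for Eef1b2 (-0.06 to 0.07), 0.03 for Eef1d (-0.05 to 0.11) and 0.02 for Eef1g (-0.08 to 0.12). Naca lay at 0.01 (-0.08 to 0.10). None of these intervals included -0.16 either. The intervals are for single genes and were not widened for the number of genes. The value of -0.16 belongs to a gene chosen for that difference, and it was -0.13 without WT_exo replicate 3. Setting the intervals beside it is a description and no test of whether the change was shared.

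**Figure D2:**
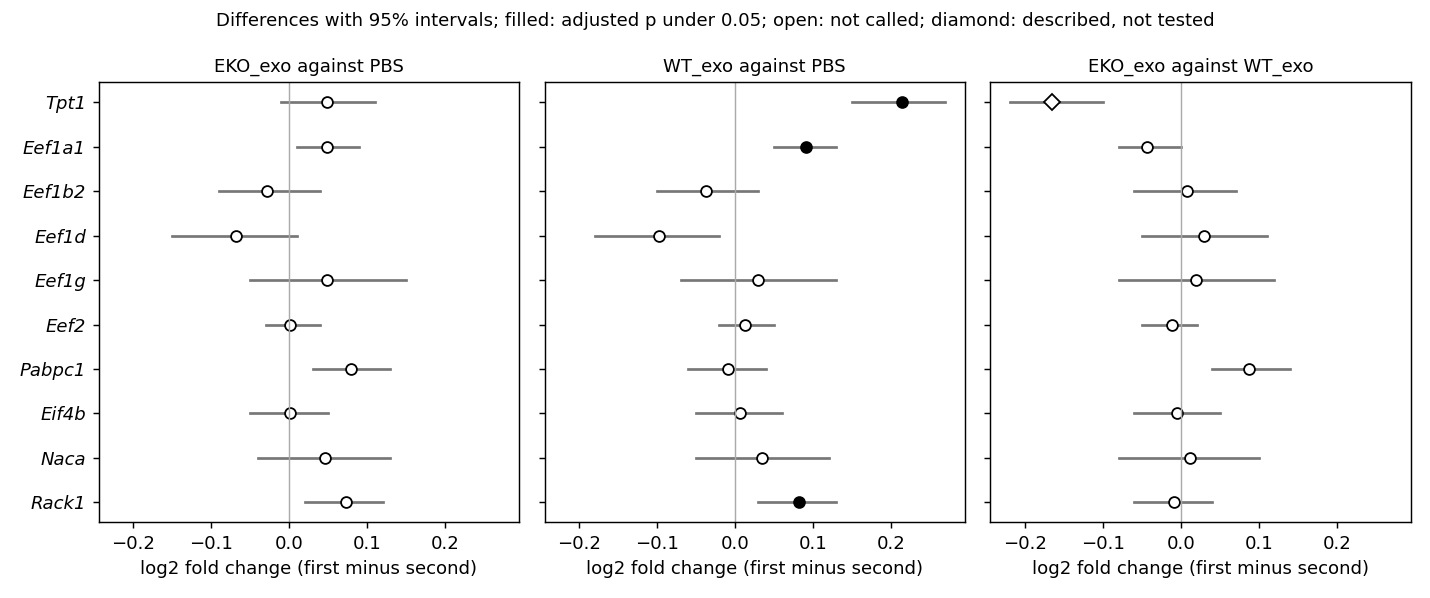
Log2 fold change of each member (horizontal axis, first-named group over the second) with its 95% interval, in 3 panels for the 3 comparisons. Filled points passed an adjusted p of 0.05, open points did not, and the diamond marks Tpt1 between the exosome groups, at -0.16, which is described and not tested. The Tpt1 intervals in all 3 panels take no account of its choice by that difference, so they are no test. The other 9 members lie between -0.04 and 0.09 in the panel of the exosome groups.

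Tpt1, Eef1a1 and Rack1 rose in WT_exo against PBS, 3 of the 10 members, and 0 fell. Of all 14684 genes, 730 (4.97%) passed in that comparison, 1.83% higher and 3.14% lower. Among the tested genes averaging 100 CPM or more, as all members did, 13.1% passed. The same 3 members, all higher, had groups that did not overlap, which held for 22.2% of all genes and, in that direction, for 10.6%. DESeq2 also called 3 members, where it called 9.15% of the genes it tested. Without WT_exo replicate 3 edgeR called 1 member, Tpt1. The WT_exo and EKO_exo comparisons with PBS share the PBS libraries, and each shares an exosome group with the contrast for which Tpt1 was chosen. Tpt1's values against PBS are therefore no independent support for that contrast. Its call in WT_exo against PBS uses the WT_exo libraries that led to its choice, so that call is a description. The calls that remain without it were those of Eef1a1 and Rack1.

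In WT_exo Tpt1 was higher than in PBS by 0.21 on the log2 scale, or 1.16-fold. Of all genes, 68.4% had a smaller absolute log2 fold change. Without WT_exo replicate 3 the value was 0.175 on that scale.

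Eef1a1 measured 4319, 4261 and 4402 CPM in WT_exo replicates 1, 2 and 3, against 4081, 4105 and 4000 CPM in PBS replicates 1, 2 and 3. Every WT_exo library lay above every PBS library. The log2 fold change was 0.09 (SE 0.021, edgeR adjusted p = 0.00616), or 1.07-fold. Without WT_exo replicate 3 the edgeR adjusted p was 0.0590.

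Rack1 (ENSMUSG00000020372, chromosome 11, 48800332 to 48806434, plus strand) measured 2210, 2209 and 2314 CPM in WT_exo replicates 1, 2 and 3, against 2109, 2166 and 2086 CPM in PBS replicates 1, 2 and 3. Every WT_exo library again lay above every PBS library. The log2 fold change was 0.08 (SE 0.024, edgeR adjusted p = 0.0398), or 1.06-fold. This call was lost in 9 of 16 alternatives, among them each that left out a WT_exo library, with adjusted p up to 0.267. Summed macrophage markers were higher in every WT_exo than in every PBS library, and their part in these differences was not tested.

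The other members did not pass between WT_exo and PBS. Eef1d was the furthest from 0, at -0.10 on the log2 scale (SE 0.040, edgeR adjusted p = 0.196). It measured 259.7, 263.6 and 274.9 CPM in WT_exo, against 296.0, 287.6 and 270.4 CPM in PBS, and the groups overlapped. Eef2 lay at 0.01 (95% interval -0.02 to 0.05), Eif4b at 0.01 (-0.05 to 0.06) and Pabpc1 at -0.01 (-0.06 to 0.04). Eef1b2, Eef1g and Naca lay at -0.04, 0.03 and 0.03.

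Between EKO_exo and PBS none of the 10 members passed with edgeR, where 746 of 14684 genes (5.08%) did, 2.21% higher and 2.87% lower. Tpt1 is counted there as a description only, since the EKO_exo libraries also led to its choice. At an unadjusted p under 0.05 there were 3 members, Eef1a1, Pabpc1 and Rack1, where 17.1% of all genes passed that mark. DESeq2 called 2 members, where it called 9.68% of the genes it tested. The 3 members had every EKO_exo library above every PBS library, which held for 9.94% of all genes, and 20.5% did not overlap in either direction.

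Pabpc1 measured 2857, 2772 and 3001 CPM in EKO_exo replicates 1, 2 and 3, against 2734, 2723 and 2716 CPM in PBS replicates 1, 2 and 3. The groups did not overlap, and the EKO_exo libraries were further apart than the PBS libraries. The log2 fold change was 0.08 (SE 0.024, edgeR adjusted p = 0.0538). DESeq2 gave an adjusted p of 0.0298, and edgeR without EKO_exo replicate 2 gave 0.0143. Without EKO_exo replicates 1 and 3 the log2 fold change was 0.02.

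Rack1 measured 2205, 2232 and 2256 CPM in EKO_exo replicates 1, 2 and 3, and the PBS libraries reached no more than 2166. The log2 fold change was 0.07 (SE 0.024, edgeR adjusted p = 0.0695, DESeq2 adjusted p = 0.0271). Eef1a1 lay at 0.05 (SE 0.021, edgeR adjusted p = 0.203) in EKO_exo against PBS, and at 0.09 without EKO_exo replicates 1 and 3. Tpt1 lay at 0.05, given as a description for the reason above. Eef2 and Eif4b both lay at 0.00 (95% intervals -0.03 to 0.04 and -0.05 to 0.05). The other members, Eef1b2, Eef1d, Eef1g and Naca, lay between -0.07 and 0.05. Summed markers of CD4 T cells, B cells and macrophages were each higher in every EKO_exo library than in every PBS library. So were those of CD8 T cells, at 41.1 to 45.2 CPM in EKO_exo and 34.8 to 38.0 CPM in PBS. Those of erythroid cells and platelets were lower in every EKO_exo library, at 8.14 to 11.1 CPM, than in every PBS library, at 11.5 to 13.1 CPM. The part of these markers in the differences was not tested.

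Tpt1 was also set against the mean of the other 9 mRNAs within each library, on the log2 CPM scale. The difference was 0.13, 0.12 and 0.12 in EKO_exo, 0.28, 0.26 and 0.35 in WT_exo, and 0.05, 0.12 and 0.11 in PBS. The WT_exo libraries lay apart from the other 6, which overlapped. This is a description, since the same libraries chose Tpt1.

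**Figure D3:**
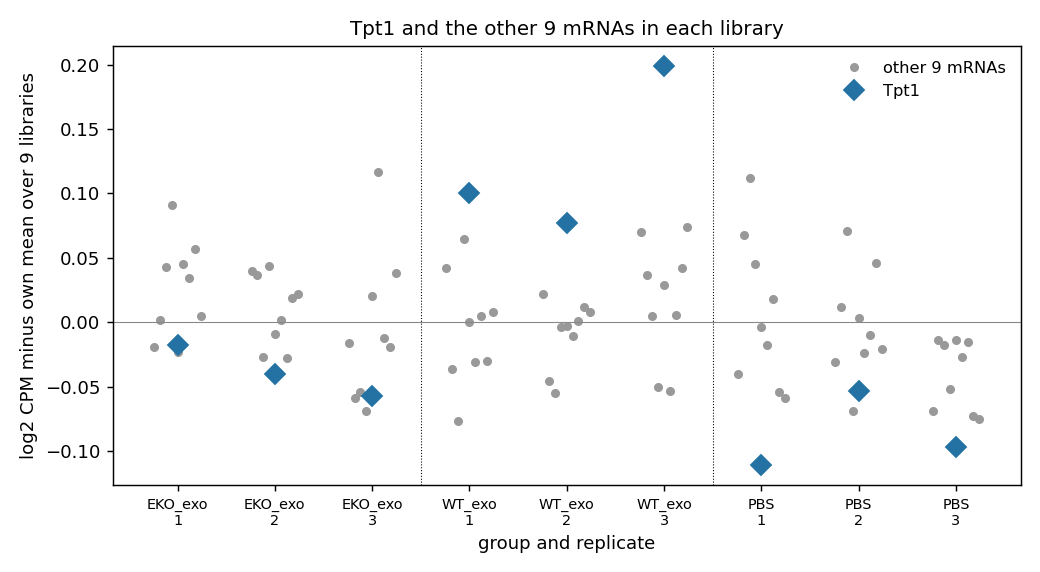
Log2 CPM of each mRNA minus its own mean over the 9 libraries (vertical axis), by group and replicate. The blue diamond is Tpt1 and grey points are the other 9 mRNAs. In all 3 WT_exo libraries Tpt1 lies above the other 9 mRNAs, and in the EKO_exo libraries it lies between -0.06 and -0.02.

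The other known TOP mRNAs divided into 79 measured ribosomal proteins and 15 others, among them subunits of initiation factors, nucleolar proteins and chaperones. Between EKO_exo and WT_exo 0 of these 94 passed with edgeR, while DESeq2 called 5, edgeR with no filter called 8 and edgeR without EKO_exo replicate 3 called 3. At an unadjusted p under 0.05 there were 24 (25.5%), 17 higher and 7 lower in EKO_exo, beside 7.08% of all genes. The share was 10.4% among genes averaging 100 CPM or more, as 50 of the 94 did. The ribosomal proteins had a median log2 fold change of 0.02 and a range of -0.35 to 0.46, and the 15 others a median of 0.00 and a range of -0.14 to 0.18. The median of all genes was 0.00. The 5 that DESeq2 called were Rpl29, Rpl30, Rps16, Rps20 and Rps26, proteins of the large or small subunit, with EKO_exo on top, opposite to Tpt1, at 0.17 to 0.31 on the log2 scale. Rpl29, named after its values were seen, measured 168.8, 163.6 and 139.1 CPM in EKO_exo, against 123.8, 126.6 and 129.5 CPM in WT_exo. The groups did not overlap, and its edgeR adjusted p was 0.0543.

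**Figure D4:**
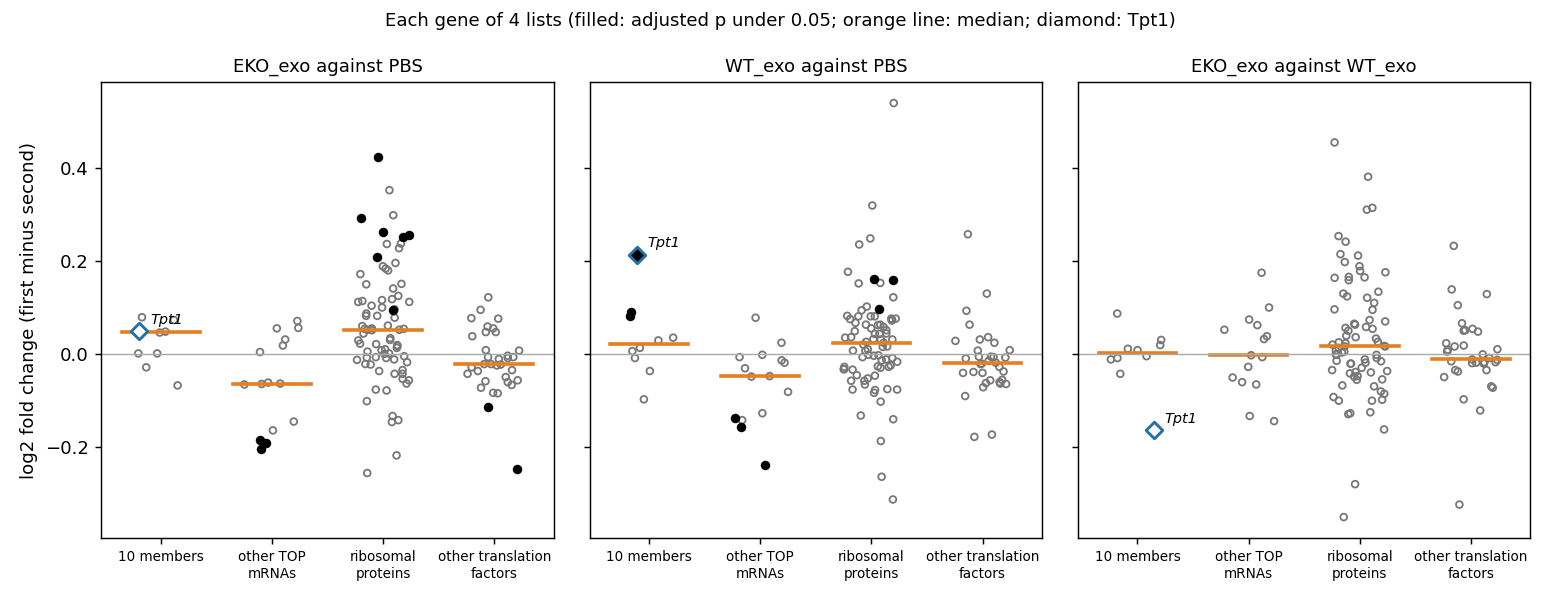
Log2 fold change (vertical axis) of each measured gene of 4 lists, the 10 members, other TOP mRNAs, ribosomal proteins and translation factors outside the TOP lists, in the 3 comparisons. Orange bars are medians, and the diamond is Tpt1. Between the exosome groups the medians lie between -0.01 and 0.02, with Tpt1 at -0.16.

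Against PBS, 10 of these 94 TOP mRNAs (10.6%) passed in EKO_exo and 6 (6.38%) in WT_exo, in both directions. The shares of all genes were 5.08% and 4.97%, and those of genes averaging 100 CPM or more were 14.2% and 13.1%, so the counts lay between these backgrounds. Without 1 library these numbers became 6 to 16 in EKO_exo and 3 to 8 in WT_exo, and DESeq2 called 12 in WT_exo. In EKO_exo 7 of the 79 ribosomal proteins were higher and 0 lower, beside 2.21% higher and 2.87% lower of all genes. Without EKO_exo replicate 3 or PBS replicate 1 the number called was 13 or 14, and without EKO_exo replicate 2, PBS replicate 2 or PBS replicate 3 it was 4. Rps20, a protein of the small subunit, measured 600.1, 594.5 and 540.1 CPM in EKO_exo, against 515.4, 475.0 and 461.6 CPM in PBS. These groups did not overlap, and the log2 fold change was 0.26 (SE 0.040, edgeR adjusted p = 0.000141). Rps16 and Rps19, also of the small subunit, were higher by 0.25 (SE 0.042) and 0.26 (SE 0.050). Over 16 alternatives the Rps19 value spanned 0.202 to 0.373.

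Among the 15 other TOP mRNAs, 3 were lower in EKO_exo and 0 higher. Npm1, the nucleolar chaperone nucleophosmin, measured 920.4, 936.5 and 916.2 CPM in EKO_exo, against 1064, 1089 and 1045 CPM in PBS. No library overlapped, and the log2 fold change was -0.21 (SE 0.027, edgeR adjusted p = 1.25e-05). Ipo5, an importin that carries ribosomal proteins into the nucleus, was at -0.19 (SE 0.029, edgeR adjusted p = 0.000134). Btf3, the partner of Naca in the nascent chain complex, was at -0.19 (SE 0.049, edgeR adjusted p = 0.0165), a call lost without PBS replicate 1 or PBS replicate 2 and without EKO_exo replicates 1 and 3. Naca itself lay at 0.05 in the same comparison.

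In WT_exo against PBS, 3 of the 15 were lower and 3 of the 79 ribosomal proteins were higher, with 0 of the 79 called without WT_exo replicate 3. Ipo5 was at -0.16 (SE 0.029, edgeR adjusted p = 0.000746) and Npm1 at -0.14 (SE 0.027, edgeR adjusted p = 0.00126). Pfdn5, a subunit of the chaperone prefoldin, was at -0.24 (SE 0.070, edgeR adjusted p = 0.0421). The ribosomal proteins were Rps7 at 0.16 (SE 0.038), Rpl8 at 0.10 (SE 0.024) and Rpl10a at 0.16 (SE 0.048). The calls of Pfdn5, Rps7, Rpl8 and Rpl10a were each lost in 3 to 8 of 16 alternatives. The medians of the 79 and the 15 were 0.05 and -0.06 in EKO_exo against PBS, and 0.02 and -0.05 in WT_exo against PBS, beside 0.00 for all genes in each comparison.

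A further list held 34 translation factors outside the TOP lists, and whether they lack a tract was not tested. Of these, 0 were higher and 2 lower in EKO_exo against PBS, close to the 5.08% of all genes called. The 2 were Eif2b1, a subunit of the exchange factor of eIF2, at -0.25 (SE 0.071), and Etf1, which releases the finished chain, at -0.11 (SE 0.034). Both calls were lost in most alternatives, with edgeR adjusted p up to 0.423 and 0.701. Without EKO_exo replicates 1 and 3 the log2 fold change of Etf1 was -0.05. In the other comparisons 0 of 34 passed with edgeR on all 9 libraries. At an unadjusted p under 0.05 there were 7 in WT_exo against PBS and 5 between the exosome groups. Of all genes 15.8% and 7.08% passed that mark. DESeq2 called 1 and 0 in these comparisons, where it called 9.15% and 0.473% of the genes it tested. In WT_exo against PBS edgeR called 1 on only the 6 libraries compared and 1 without EKO_exo replicates 1 and 3.

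Of 23 genes of mTORC1 and LARP1, which act on the translation of TOP mRNAs, 0 passed in any comparison with edgeR on all 9 libraries under the main filter. At an unadjusted p under 0.05 there were 4 in EKO_exo against PBS, 2 in WT_exo against PBS and 0 between the exosome groups. Of all genes 17.1%, 15.8% and 7.08% passed that mark. DESeq2 called 1, 2 and 0, where it called 9.68%, 9.15% and 0.473% of the genes it tested. In WT_exo against PBS edgeR called 2 on only the 6 libraries compared and 2 without EKO_exo replicates 1 and 3. It called 1 with no filter, with a mean of at least 5 CPM, without EKO_exo replicate 1 and without EKO_exo replicate 3. The medians were 0.02, 0.01 and 0.00. These are mRNA levels and give no measure of mTORC1 activity.

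A wider view took every tested gene with an annotated transcript that starts with a C followed by at least 4 pyrimidines, whatever its exact letters. There were 1402 of them, 9.55% of the tested genes, among them 35 of the 79 ribosomal proteins and 6 of the 15 other TOP mRNAs. This set was added after the data were seen. In EKO_exo against PBS 38 were higher and 34 lower, and in WT_exo against PBS 32 were higher and 42 lower. These were 5.14% and 5.28% of the set, near the 5.08% and 4.97% of all genes. The median log2 fold change was 0.00 in all 3 comparisons.

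The genes most like Tpt1 over the 9 libraries were not on the list. Likeness was the root mean square difference between log2 CPM centred on each gene's mean, and Tpt1's own root mean square around its mean was 0.097. The closest were Zfp397 at 0.036, Klhl42 at 0.038, Vps11 at 0.041, Zfp275 at 0.042 and Leng1 at 0.043. Among all tested genes Eef1a1 ranked 78 and Rack1 ranked 202. Eef1d ranked 4767, the last of the members. Libraries of one group share a treatment, and the ranking ran over all genes, so this is a description.

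The sequences of some members are shared with other annotated genes, which limits their counts. Of all 50-base words of the protein-coding transcripts, 36.8% of Tpt1's also occur in one of 5 pseudogenes. Those 5 held counts equal to 0.234 to 0.328% of Tpt1's. Eef1a1 shared 53.6% of its words, and the genes that share them held counts equal to 0.912 to 1.05% of its own. Eef1g shared 64.3%, and those genes held 1.1 to 2.37% of its counts, while Rack1 shared 0.93%. Eef1b2 shared 5.83%, with genes that held counts equal to 14.3 to 16.1% of its own, up to 8.81% in Vps53. Of 100-base words Eef1b2 shared 1.19%, with counts of at most 0.0811% of its own. The counts of Tpt1, Eef1a1, Eef1g and Eef1b2 are uncertain by an amount not measured here. How reads that fit several genes were counted is not given in the sources used here. The pseudogene Tpt1-ps3 had 63, 54 and 52 counts in EKO_exo, 86, 85 and 80 in WT_exo, and 62, 65 and 82 in PBS. Rack1 overlaps the oppositely oriented Trim41 by 31 exon bases and Eef1b2 overlaps Ndufs1 by 9. Without a stated strand setting, reads there cannot be told apart. Eef1d overlaps Naprt by 277 exon bases on the same strand, and Naprt held 24 to 61 counts.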

How the data were processed

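The data were raw counts of mRNA reads for 9 cultures, deposited by the authors as whole numbers without normalization. The submitters' processing notes name STAR 2.7.5c and the mouse build GRCm38. How reads were assigned to genes, on which strand and with which annotation, is not given in the sources used here. Identifiers were matched to GENCODE M21, where 55450 of 55536 had a symbol. Transcript starts came from the same annotation and were read for the 7 members in the RefSeq promoter table for GRCm38. The sequence of 1 of these starts is not reported here.

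In R 4.3.3, edgeR 4.0.16 kept genes by filterByExpr (minimum count 10, minimum total 15), which held at least 99.92% of every library's counts. Libraries were scaled by TMM, and a quasi-likelihood model of the 3 groups was fitted to all 9 libraries with no covariate (6 residual and 21.1 prior degrees of freedom). P-values were adjusted over 14684 genes by Benjamini and Hochberg, and genes were called under 0.05. DESeq2 1.42.0, total counts as library sizes, other filters, a replicate block and libraries left out were alternatives. Chi-square per degree of freedom between libraries of a group was 5.02 to 9.08, so none looked like a repeat deposit. Scripts were tested on simulated data.

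The members and lists were chosen with earlier results of these data known. Named were all members, in each comparison the 3 genes with the smallest p among the called of each list, and the 5 genes of at least 10 CPM most like Tpt1. Other named genes were chosen after their values were seen.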

Additional observations from a re-analysis of the deposited data

How the results depend on the processing

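Members called in EKO_exo against PBS numbered 0, against 2 with DESeq2 and 0 to 1 when each library was left out in turn (1 without EKO_exo replicate 2). In WT_exo against PBS 3 were called, against 2 with no filter, 2 with a mean of at least 5 CPM, and 1 to 3 with a library left out (1 without WT_exo replicate 3). Between the exosome groups 0 of 9 were called in every alternative run. Other TOP mRNAs called in EKO_exo against PBS numbered 10, against 6 to 16 with a library left out (16 without EKO_exo replicate 3 or PBS replicate 1, 6 without PBS replicate 2). In WT_exo against PBS they numbered 6, against 12 with DESeq2, 11 with a mean of at least 5 CPM, with only the 6 libraries compared and without EKO_exo replicates 1 and 3, and 3 to 8 with a library left out (3 without PBS replicate 2, WT_exo replicate 2 or WT_exo replicate 3). Between the exosome groups they numbered 0, against 5 with DESeq2, 8 with no filter, 3 with a mean of at least 5 CPM, 1 with only the 6 libraries compared, and 0 to 3 with a library left out (3 without EKO_exo replicate 3, 1 without PBS replicate 1). All of those had EKO_exo on top. The cause of these changes was not tested.

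Same-numbered cultures did not deviate together (correlations of -0.02 to 0.024, beside -0.026 to 0.025 for other numbers). Whether the numbers pair the cultures is not stated, and these correlations over all tested genes cannot settle it. With the replicate block 2 members and 4 other TOP mRNAs were called in WT_exo against PBS, and Rack1, Pfdn5, Rpl10a, Eif2b1 and Etf1 lost their calls. Genes called in all were 614 and 609 against PBS with the block, and 1 between the exosome groups. Without the block 5 were called there, against 25 with DESeq2, 28 with no filter, 9 with a mean of at least 5 CPM, 0 without EKO_exo replicates 1 and 3, and 0 to 6 with a library left out. In EKO_exo against PBS 746 were called, against 249 without EKO_exo replicates 1 and 3, 399 without PBS replicate 1 and 375 without PBS replicate 2. In WT_exo against PBS 730 were called, against 410 without PBS replicate 1, 399 without PBS replicate 2, and 441, 430 and 432 without WT_exo replicate 1, 2 or 3. The shares of all genes called move with these totals.

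Signs turned where a log2 fold change lay near 0 and was not called. In EKO_exo against PBS, Eef2 was at -0.005 with total counts, -0.001 with no filter, -0.002 with at least 5 CPM, -0.005 without EKO_exo replicates 1 and 3, and -0.012 to 0.010 with a library left out. Eif4b was at -0.005, -0.002, -0.003, -0.026 and -0.018 to 0.011 in the same settings, and Eef1b2 at 0.014 without EKO_exo replicates 1 and 3. With a library left out, WT_exo against PBS spanned -0.002 to 0.064 for Eef1g, -0.020 to 0.001 for Pabpc1 and -0.003 to 0.016 for Eif4b. The exosome groups spanned -0.015 to 0.034 for Eef1b2, -0.016 to 0.063 for Eef1g, -0.024 to 0.006 for Eif4b, -0.008 to 0.029 for Naca and -0.020 to 0.014 for Rack1. Over all 16 alternatives Eef1b2 spanned -0.015 to 0.052 between the exosome groups. The SE of the log2 fold change against PBS was 0.017 for Eef2, the member with the most counts, and 0.050 for Eef1g, the member with the fewest, so smaller differences were detectable for Eef2.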
